A study of Mus musculus with 10 samples.

Results

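The 8 genes described here make, release, move or remove phosphate and pyrophosphate at the surface of mineralizing cells. They were chosen by name from the deposited expression table as the rows whose gene name is Alpl, Phospho1, Smpd3, Enpp1, Ank, Phex, Slc20a1 or Slc20a2, and they are 8 of 29583 genes in the table. Their transcripts were measured by mRNA sequencing in MC3T3-E1 cells, a mouse line of osteoblast precursors from the skull, exposed to β-ecdysterone, a plant and insect steroid. Of 10 libraries, 6 came from cells given 100, 150 or 200 µM β-ecdysterone for 5 or 10 days, with 1 library for each dose and day. Another 2 came from cells given 0 µM, 1 on day 5 and 1 on day 10. The last 2, A-5 and B-4, are labelled untreated, and their labels state no time. All groups share the line, and none carries a transgene or deletion. The labels add strain C57BL/6, age newborn and a bone marrow mesenchymal stem cell source, while the titles and the treatment protocol name MC3T3-E1.

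Bone mineral forms when phosphate joins calcium in and around matrix vesicles, and pyrophosphate blocks that step. Tissue-nonspecific alkaline phosphatase, encoded by Alpl, cleaves pyrophosphate to phosphate on the cell and vesicle surface. ENPP1 makes pyrophosphate outside the cell, ANK allows it or its precursor ATP to leave the cell, PHOSPHO1 frees phosphate from phosphocholine inside vesicles, and the transporters encoded by Slc20a1 and Slc20a2 carry phosphate in.

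The libraries held 27108562 to 58218009 counts of reads on genes. Levels are given as CPM, which scale a gene's counts to the TMM-adjusted size of its library, and as the authors' FPKM values, which also divide by transcript length and so allow genes to be set side by side. With 1 library per dose and day, the 3 doses stood in for replicates of treated cells, so p-values measure the spread between these libraries, and differences between doses are part of that spread. Intervals of CPM and of ratios of counts, and a floor of 3 counts per library for genes at 0, cover counting error only. Intervals of log2 fold changes and of dose slopes come from the edgeR fit and include the spread between libraries. A bulk library cannot tell fewer cells of a type from less RNA per cell. Collagen transcripts of osteoblasts were abundant in every library, with Col1a1 at 938 to 1660 FPKM in treated cells, 1283 to 1590 FPKM at 0 µM and 492 to 654 FPKM in untreated cells. The summed level of the 7 osteoblast markers was 2669 to 5221 FPKM in treated cells and 3302 to 4031 FPKM at 0 µM. In untreated cells it was 1638 to 1974 FPKM. Within that list, Sp7, the transcription factor osterix, was at 15.6 to 38.1 FPKM in treated cells and 1.53 to 1.86 FPKM at 0 µM. Ibsp, bone sialoprotein, was at 31.6 to 342 FPKM and 0.292 to 0.371 FPKM, and Runx2 at 33.4 to 44.5 FPKM and 14.8 to 16.3 FPKM. The rest of the list overlapped between these groups. Col1a2 was at 1573 to 3127 FPKM in treated cells and 1997 to 2422 FPKM at 0 µM. Bglap was at 0.348 to 10.3 FPKM and 0.4 to 0.97 FPKM, and Bglap2 at 0.896 to 10.1 FPKM and 1.56 to 2.46 FPKM. The part of these markers in the results below was not tested. The summed markers of fat, muscle, macrophage and endothelial cells reached at most 4.46, 1.03, 1.24 and 0.38 FPKM in any library. The 4 cartilage markers summed to 17.6 to 30.0 FPKM in treated cells and 18.2 to 20.1 FPKM at 0 µM, mostly from Sox9 and Col2a1, while Acan, the aggrecan of cartilage, had at most 8 counts.

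Against 0 µM, 4 of the 8 genes changed in treated cells. Alpl, Smpd3 and Phospho1, an enzyme of the vesicle surface and a pair acting in matrix vesicle phospholipid breakdown, rose, and Slc20a1, a phosphate importer, fell. Ank, Slc20a2 and Phex did not pass the test, and Enpp1 had too few counts to be tested. Calls were made by edgeR's quasi-likelihood test, with p adjusted over 16794 genes by the Benjamini-Hochberg method, and needed an adjusted p under 0.05 and a log2 fold change over 1 in size. These limits called 19.4% of all genes tested, 13.4% higher and 5.98% lower. The median log2 fold change was 0.64 over the 7 genes tested here and 0.05 over all genes tested. All 6 treated libraries lay above both libraries at 0 µM for 3 of the genes and below both for 1, patterns that 27.5% and 25.2% of all genes tested showed.

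**Figure D1:**
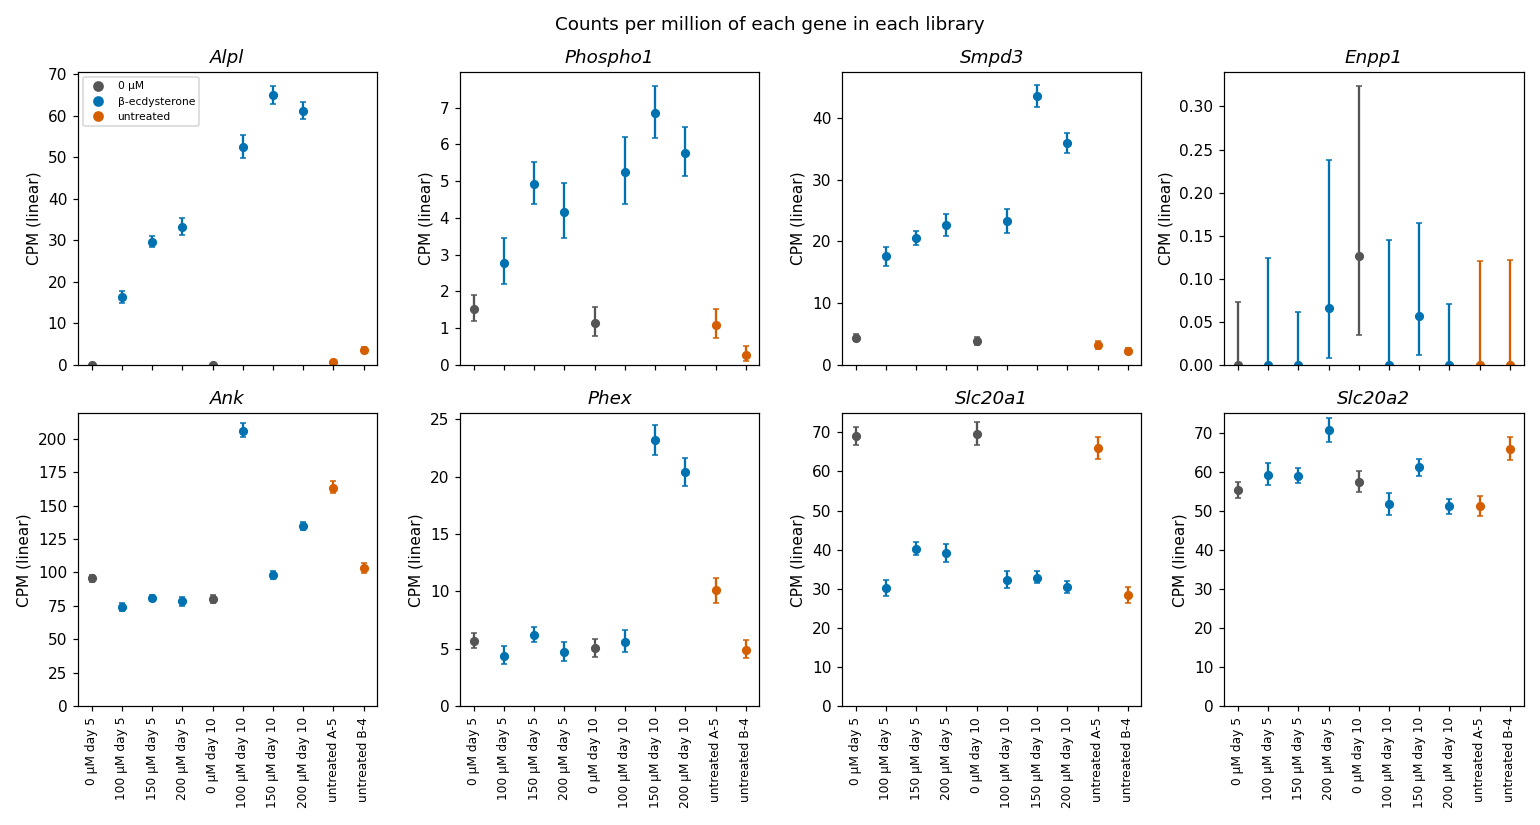
Each panel plots the CPM of 1 gene (linear axis) in the 10 libraries, with points in grey for 0 µM, blue for β-ecdysterone and orange for untreated cells, and bars for the exact 95% Poisson counting interval. Alpl, Smpd3 and Phospho1 are higher in every blue point than in every grey one, Slc20a1 is lower in every blue point, and Enpp1 never exceeds 0.126 CPM.

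The upstream sequences below are shown for the called genes that have an entry in RefSeq's promoter table (build GRCm38.p6), since these are the bases just upstream of the annotated starts of genes that moved. The table held 6 of the 8 genes. Each run ends at the base before the annotated transcript start and reads 5′ to 3′ in the direction of transcription. Capitals mark every match, on either strand, to the GC box GGGCGG, the Runx core TGTGGT or the TATA box TATAAA. Of 32851 windows of 250 bases upstream of genes in the table, 32.7% held the GC box, 14% the Runx core and 12.4% the TATA box.
Alpl start 1, chr4:137796385-137796634, minus strand: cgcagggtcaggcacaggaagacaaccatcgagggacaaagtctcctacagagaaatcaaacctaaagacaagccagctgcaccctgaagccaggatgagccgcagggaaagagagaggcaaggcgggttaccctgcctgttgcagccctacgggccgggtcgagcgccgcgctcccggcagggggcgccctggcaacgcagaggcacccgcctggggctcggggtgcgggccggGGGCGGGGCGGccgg
Alpl start 2, chr4:137766476-137766725, minus strand: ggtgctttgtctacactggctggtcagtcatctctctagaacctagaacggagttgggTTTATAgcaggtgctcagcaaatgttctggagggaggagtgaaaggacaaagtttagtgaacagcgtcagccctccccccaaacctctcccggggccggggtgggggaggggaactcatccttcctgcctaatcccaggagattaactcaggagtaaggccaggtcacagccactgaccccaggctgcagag
Phospho1, chr11:95824250-95824498, plus strand: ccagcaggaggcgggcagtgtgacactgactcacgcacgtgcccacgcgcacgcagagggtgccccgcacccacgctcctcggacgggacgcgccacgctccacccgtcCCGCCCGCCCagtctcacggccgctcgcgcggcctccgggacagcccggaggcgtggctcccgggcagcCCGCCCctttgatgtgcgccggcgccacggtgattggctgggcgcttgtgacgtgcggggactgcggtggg
Slc20a1 start 1, chr2:129198523-129198763, plus strand: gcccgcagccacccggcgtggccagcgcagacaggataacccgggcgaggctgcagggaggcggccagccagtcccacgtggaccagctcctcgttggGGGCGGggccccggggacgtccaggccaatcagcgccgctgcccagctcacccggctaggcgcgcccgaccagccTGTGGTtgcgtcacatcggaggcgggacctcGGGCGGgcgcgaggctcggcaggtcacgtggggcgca
Slc20a1 start 2, chr2:129206846-129207095, plus strand: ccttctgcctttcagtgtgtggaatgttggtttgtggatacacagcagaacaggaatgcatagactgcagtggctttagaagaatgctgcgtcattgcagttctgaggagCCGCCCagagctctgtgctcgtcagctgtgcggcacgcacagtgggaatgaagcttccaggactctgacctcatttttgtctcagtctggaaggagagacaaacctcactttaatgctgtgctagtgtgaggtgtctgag
The window at Alpl start 1 held 2 GC boxes that overlap by their letters, and that at start 2 held none of these but a TATA box on the opposite strand. Phospho1 held 3 GC boxes, 2 of them overlapping, Slc20a1 start 1 held 2 GC boxes and a Runx core, and Slc20a1 start 2 held 1 GC box. The G and C content was 68.4% at Alpl start 1, 56.0% at Alpl start 2, 75.5% at both Phospho1 and Slc20a1 start 1, and 50.8% at Slc20a1 start 2. These matches describe letters in the windows and were not tied to binding of any factor. The deposited counts are per gene, so the use of start 1 and start 2 of Alpl or Slc20a1 could not be separated.

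Alpl (ENSMUSG00000028766, GENCODE M21 gene span chr4:137741733-137796384, minus strand) was nearly without reads at 0 µM. It had 0 counts at 0 µM on day 5 and 2 counts at 0 µM on day 10, so it entered the test through its treated libraries alone. On day 5 the treated libraries held 486 counts at 100 µM, 1774 at 150 µM and 1010 at 200 µM, which are 16.3, 29.7 and 33.3 CPM. On day 10 they held 1334 counts at 100 µM, 3460 at 150 µM and 3186 at 200 µM, which are 52.5, 65.0 and 61.2 CPM. Every treated library was far above both at 0 µM, and every treated library of day 10 was above every treated library of day 5. The treated mean was 43.0 ± 19.4 CPM (SD, n = 6), and the difference from 0 µM was called (edgeR adjusted p = 1.9e-06). On day 5 the treated mean was 448 times a floor of 3 counts in the 0 µM library. Against the 0 counts there, the lower 95% counting limit of the ratio, from pooled treated counts, was 376. On day 10, against the 2 counts at 0 µM, the ratio from pooled treated counts was 966, with a 95% counting interval of 267 to 7977. Both ratios cover counting error only.

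The untreated libraries gave a second, higher baseline for Alpl. A-5 held 18 counts (0.591 CPM) and B-4 held 105 counts (3.48 CPM). The level from the pooled counts and pooled sizes of the treated libraries was 75.9 times that in A-5 (95% counting interval 48 to 128). It was 12.9 times that in B-4 (10.7 to 15.8). B-4 was itself 5.88 times A-5 (3.54 to 10.3). The size of the rise therefore depended on which cells served as the baseline, and its direction did not.

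The phosphatase of phosphocholine and the sphingomyelinase also rose. Phospho1 (ENSMUSG00000050860, chr11:95824499-95832140, plus strand) had 1.51 CPM at 0 µM on day 5 and 1.14 CPM at 0 µM on day 10. Its treated libraries had 2.78, 4.92 and 4.16 CPM at 100, 150 and 200 µM on day 5, and 5.24, 6.86 and 5.78 CPM on day 10. The groups did not overlap, and 150 µM was the highest dose in level on both days. Phospho1 rose 3.54-fold (log2 fold change 1.83, standard error 0.32, edgeR adjusted p = 0.0013). In untreated cells it was lower still or similar, with 1.08 CPM in A-5 and 0.265 CPM in B-4, the latter from 8 counts.

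Smpd3 (ENSMUSG00000031906, chr8:106252548-106337988, minus strand) encodes neutral sphingomyelinase 2, which cleaves sphingomyelin to ceramide and phosphocholine. It had 4.38 CPM at 0 µM on day 5 and 3.82 CPM at 0 µM on day 10. Treated cells had 17.6, 20.5 and 22.6 CPM at 100, 150 and 200 µM on day 5 and 23.3, 43.5 and 35.9 CPM on day 10. All treated libraries were at least as high as 17.6 CPM, above both libraries at 0 µM and above A-5 and B-4, which had 3.19 and 2.22 CPM. Smpd3 rose 6.19-fold (95% interval of the log2 fold change 1.96 to 3.30, edgeR adjusted p = 1.1e-04).

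The pyrophosphate genes behaved differently from Alpl. Enpp1 (ENSMUSG00000037370, chr10:24637914-24712159, minus strand), the main enzyme that makes pyrophosphate outside the cell, had no counts in 7 of the 10 libraries. The other libraries held 2 counts at 200 µM on day 5, 4 at 0 µM on day 10 and 3 at 150 µM on day 10. No difference in Enpp1 between groups was detectable at this depth.

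Ank (ENSMUSG00000022265, chr15:27466677-27594909, plus strand) had the highest FPKM of the 8 genes in each of the 10 libraries. It had 95.6 CPM at 0 µM on day 5 and 80.1 CPM at 0 µM on day 10. On day 5 it had 74.2, 80.8 and 78.3 CPM at 100, 150 and 200 µM, all below 0 µM of the same day. On day 10 it had 206, 97.9 and 135 CPM at 100, 150 and 200 µM, all above 0 µM of the same day. Over both days treated cells did not pass the test (log2 fold change 0.22, 95% interval -0.43 to 0.87, edgeR adjusted p = 0.567), and the sign turned without the library of 0 µM on day 10 (-0.32). The opposite directions on the 2 days amounted to a difference of 1.17 on the log2 scale, with an unadjusted p of 0.025 that did not survive adjustment over all genes (edgeR adjusted p = 0.531). The untreated libraries had 163 CPM in A-5 and 103 CPM in B-4, above both libraries at 0 µM.

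Phex (ENSMUSG00000057457, chrX:157162075-157415312, minus strand), an endopeptidase of osteoblasts and osteocytes whose loss causes phosphate wasting, was high in 2 treated libraries. It had 5.70 CPM at 0 µM on day 5 and 5.06 CPM at 0 µM on day 10. On day 5 the treated levels were 4.42, 6.23 and 4.72 CPM at 100, 150 and 200 µM, and on day 10 they were 5.63, 23.2 and 20.4 CPM. Among treated libraries, only 150 and 200 µM on day 10 stood above 0 µM by more than counting error, with 95% intervals of 21.9 to 24.5 and 19.2 to 21.6 CPM. The groups overlapped, and the test over all doses did not pass (log2 fold change 0.64, 95% interval -0.55 to 1.84, edgeR adjusted p = 0.355). The fold ranged from -0.16 without 0 µM on day 10 to 1.71 without 0 µM on day 5. The libraries with high Phex were also deep, with 58218009 counts at 150 µM and 53666325 at 200 µM on day 10 against 27108562 at 100 µM. The equally deep library of 150 µM on day 5, with 57220036 counts, had 6.23 CPM. A-5 had 10.1 CPM and B-4 4.93 CPM.

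**Figure D2:**
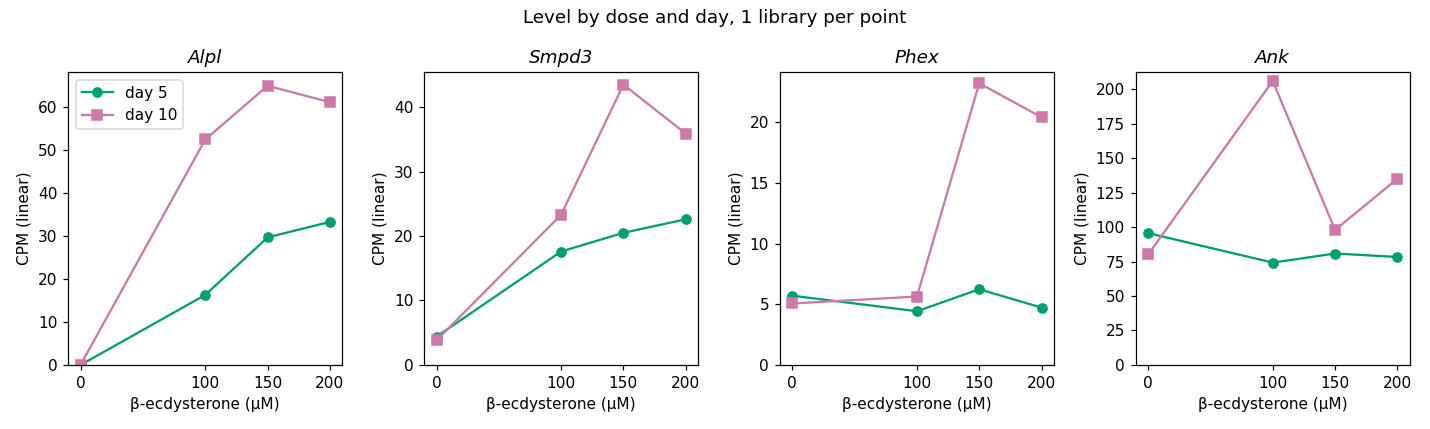
CPM (linear axis) of Alpl, Smpd3, Phex and Ank against the dose of β-ecdysterone in µM, with 1 line per day and 1 library per point. On day 10 Phex was near its 0 µM level at 100 µM (5.63 CPM) and above 20 CPM at the higher doses, while Ank was highest at 100 µM (206 CPM).

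The phosphate importers differed from each other. Slc20a1 (ENSMUSG00000027397, chr2:129198764-129211616, plus strand), which encodes the sodium-dependent importer PiT-1, had 69.1 CPM at 0 µM on day 5 and 69.6 CPM at 0 µM on day 10. Treated cells had 30.2, 40.3 and 39.1 CPM at 100, 150 and 200 µM on day 5 and 32.3, 32.9 and 30.4 CPM on day 10. Every treated library was below both at 0 µM. Slc20a1 fell 2.04-fold (log2 fold change -1.03, standard error 0.11, edgeR adjusted p = 8.5e-05). That fold lies close to the limit, and the call was lost at -0.98 without the library of 100 µM on day 5 and at -0.94 without that of 0 µM on day 10. A-5 had 65.9 CPM, like the cells at 0 µM, and B-4 had 28.4 CPM, below every treated library. With the untreated libraries in place of 0 µM the log2 fold change was -0.46 (edgeR adjusted p = 0.22), so the fall was seen against 0 µM and did not pass against untreated cells.

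Slc20a2 (ENSMUSG00000037656, chr8:22476788-22569612, plus strand), which encodes the related importer PiT-2, had 55.3 CPM at 0 µM on day 5 and 57.4 CPM at 0 µM on day 10. Its treated libraries had 59.2, 59.0 and 70.6 CPM at 100, 150 and 200 µM on day 5 and 51.7, 61.1 and 51.1 CPM on day 10. The groups overlapped, and no change was called (log2 fold change 0.05, 95% interval -0.20 to 0.30, edgeR adjusted p = 0.749), with a sign that turned in 4 alternatives, the lowest value being -0.075. The FPKM of Slc20a2 was 1.37 to 1.82 times that of Slc20a1 in treated cells, and 0.744 and 0.757 times at 0 µM on days 5 and 10. In A-5 the ratio was 0.699 and in B-4 it was 2.08. The order of the importers per length was thus reversed between 0 µM and every treated library, a difference of ratios that was described and not tested.

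**Figure D3:**
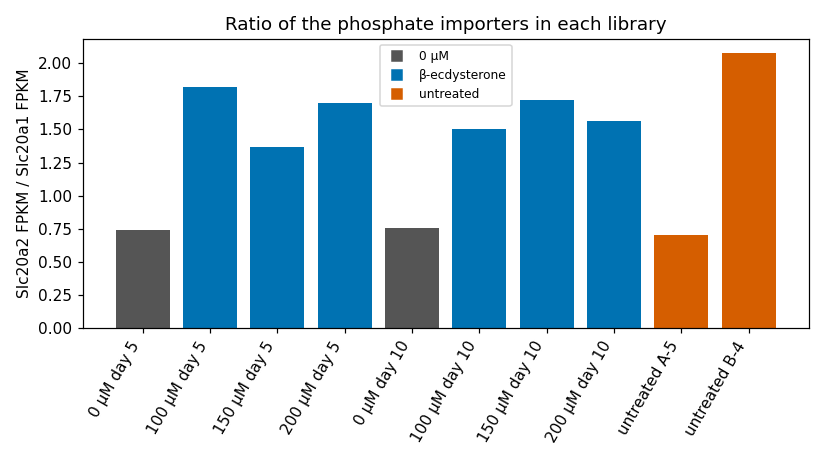
The bars give the ratio of Slc20a2 FPKM to Slc20a1 FPKM in each library, from 0, in grey for 0 µM, blue for β-ecdysterone and orange for untreated cells. The ratio is under 1 in both libraries at 0 µM and in A-5, and above 1 in all 6 treated libraries and in B-4.

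Per transcript length, the order of the genes differed most in the place of Alpl, which ranked 7 at 0 µM and 2 in treated cells of both days together. In treated cells of day 5 alone Alpl ranked 4 at 9.48 FPKM, with a range that overlapped that of Slc20a1 at 10.1 FPKM. On day 10 it ranked 2 at 20.4 FPKM. The ranks and means that follow also join both days. Slc20a1 went from rank 2 to 4 and Phex from 4 to 7. At 0 µM the mean FPKM was 22.9 for Ank, 19.4 for Slc20a1, 14.5 for Slc20a2 and 1.07 for Phex, with ranges that did not overlap between neighbours. Smpd3 and Phospho1 followed at 0.724 and 0.708 FPKM with overlapping ranges, and Alpl and Enpp1 came last at 0.0112 and 0.00813 FPKM, also overlapping. In treated cells the mean FPKM was 27.7 for Ank, 14.9 for Alpl and 14.7 for Slc20a2, with ranges that overlapped from one to the next. Slc20a1 at 9.20 FPKM was separate from both neighbours, and Smpd3 at 4.66, Phospho1 at 2.70 and Phex at 1.77 FPKM overlapped in sequence. The Enpp1 mean was 0.00222 FPKM in treated cells. The ratio of Ank FPKM to Alpl FPKM was 1.05 to 3.29 in treated cells, 927 at 0 µM on day 10, 207 in A-5 and 21.5 in B-4. The FPKM of Phospho1 per CPM varied 2.75-fold across libraries, from 0.494 to 1.36, and 1.22-fold without B-4, which had 8 counts of it. For the other 6 genes tested it varied at most 1.20-fold.

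**Figure D4:**
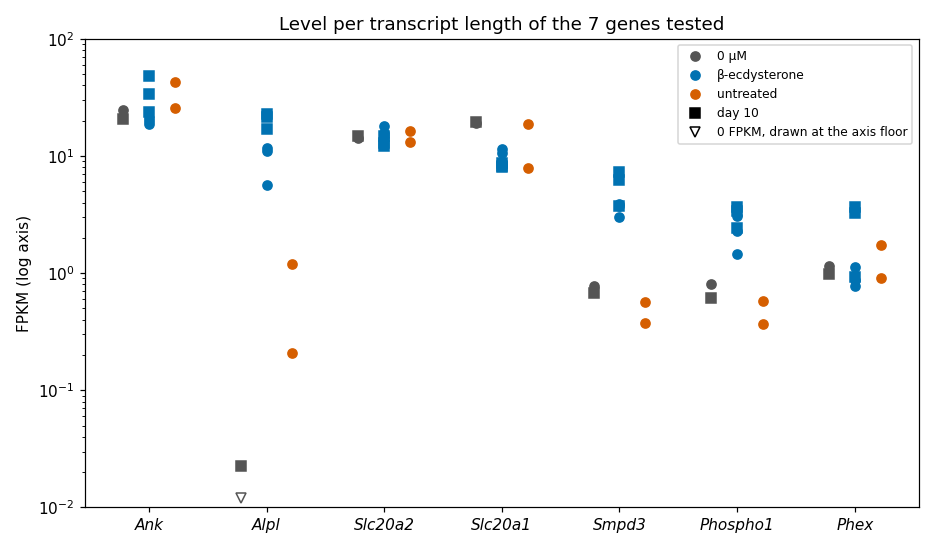
FPKM (log axis) of the 7 genes tested, 1 point per library, in grey for 0 µM, blue for β-ecdysterone and orange for untreated cells, with squares for day 10, circles for the other libraries and an open triangle at the axis floor for 0 FPKM. Alpl lies at 5.70 to 22.7 FPKM in treated cells and at 0 and 0.0225 FPKM at 0 µM, while Slc20a2 stays between 12.1 and 18.1 FPKM in all libraries.

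The treated libraries of day 10 were also compared with those of day 5. Alpl rose 2.26-fold (log2 fold change 1.18, standard error 0.22, edgeR adjusted p = 0.0287) and was the only 1 of the 7 genes tested that was called, where 1.05% of 16020 genes tested were. In 4 genes, Alpl, Smpd3, Phospho1 and Ank, all 3 libraries of day 10 lay above all 3 of day 5, as they did for 11.9% of genes tested, and no gene of the 7 showed the opposite, as 11% did. The log2 differences were 0.92 for Ank (edgeR adjusted p = 0.0624), 1.69 for Phex (0.0692), 0.77 for Smpd3 (0.0798) and 0.59 for Phospho1 (0.211). Those of Slc20a1 and Slc20a2 were -0.19 and -0.20 (edgeR adjusted p = 0.452 and 0.387). With depth class added to the fit, the Phex difference was 1.12, and Alpl was again the only one called. With dose as a block, which sets the days side by side within each dose, Alpl was called at 1.23 (edgeR adjusted p = 0.0103) and Phex at 1.51 (edgeR adjusted p = 0.041). The Alpl call rested on single libraries. It was lost without 100 µM on day 5, where the log2 difference was 0.92, and without 200 µM on day 5 (edgeR adjusted p = 0.0825), 200 µM on day 10 (0.114) or 150 µM on day 10 (0.0567). Phex was called without 100 µM on day 10 (2.08, edgeR adjusted p = 0.00133), and Ank without 150 µM on day 10 (1.14, edgeR adjusted p = 0.0149).

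None of the 7 genes had a treated effect that differed between days in edgeR, where 0.0119% of genes tested were called at an adjusted p under 0.05. At an unadjusted p under 0.05 there was 1 of the 7, Ank, and 1395 of all genes tested, and DESeq2 called 0 of the 7. None had a trend with dose within treated cells either (0% of 16020 genes tested were called). At an unadjusted p under 0.05 there was 1 of the 7, Alpl, and 380 of all genes tested, and DESeq2 again called 0 of the 7. The slope of Alpl was 0.60 on the log2 scale per 100 µM (95% interval 0.12 to 1.09, unadjusted p = 0.021, edgeR adjusted p = 0.996). Slopes were positive for 6 of the 7 genes, where the median slope over all genes tested was 0.01 and the share of positive slopes was not counted. Ank had a negative slope (-0.30, 95% interval -0.88 to 0.29) that turned to 0.26 without 100 µM on day 10. The slopes of Slc20a1, Slc20a2 and Phex also turned when single libraries were left out, with lowest values of -0.09, -0.02 and -0.01. For Alpl, 100 µM was the lowest dose on both days, and the higher doses exchanged places, with 200 µM highest on day 5 and 150 µM highest on day 10.

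The 47 other genes of phosphate and pyrophosphate handling, in 6 lists, showed which neighbours of the 8 moved. In the comparison of treated cells with 0 µM, 38 were tested, 7 rose, 3 fell and 28 were not called, where 13.4% and 5.98% of all genes tested rose and fell. The median log2 fold change of the 38 was 0.12. Alpl had no counterpart among the other alkaline phosphatases. Alppl2, Akp3 and Alpi had at most 3 counts in any library and none was tested.

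The list named pyrophosphate and extracellular nucleotide enzymes held most of the rises, with 5 of 10 tested higher, 0 lower and a median of 1.16. It also holds genes of other functions. Enpp6, Abcc6 and Entpd1 had too few counts at 0 µM to enter the test except through treated libraries. They could be seen to rise but not to fall, and the tally and median include them. Enpp2, autotaxin, which makes lysophosphatidic acid, had 0.786 CPM at 0 µM on day 5 and 0.158 CPM at 0 µM on day 10. Treated cells had 14.1 to 39.5 CPM (log2 fold change 5.31, standard error 0.56, edgeR adjusted p = 7.4e-05). B-4 had 50.8 CPM, above every treated library, and A-5 had 3.35 CPM, so the direction was reversed against the untreated libraries (-0.27). Enpp6, a choline phosphodiesterase, had 0 counts in both libraries at 0 µM and 2 to 14 counts in treated ones. Abcc6, a transporter involved in ATP release, had 6 and 6 counts at 0 µM and 10 to 45 counts in treated cells (log2 fold change 1.75, edgeR adjusted p = 0.0125). Entpd1, the nucleotidase CD39, had 4 and 0 counts at 0 µM and 7 to 27 counts in treated cells (2.68, edgeR adjusted p = 0.0293). The calls of Enpp6, Abcc6 and Entpd1 rest on few counts, and each was lost without the library of 0 µM on day 10 (edgeR adjusted p = 0.0997, 0.108 and 0.192). Those of Enpp6 and Abcc6 were also lost without 0 µM on day 5 (edgeR adjusted p = 0.202 and 0.0703). The other list member that rose was Nt5e, the ecto-nucleotidase CD73 (log2 fold change 1.53), with 9.26 and 6.92 CPM at 0 µM and 17.3 to 33.8 CPM in treated cells. A-5, at 8.21 CPM, was below every treated library and B-4, at 42.8 CPM, above every one, and the log2 fold change against both was -0.09.

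In the phosphate hormone axis 1 of 5 tested rose and 3 fell, with a median of -1.12. Mepe, a matrix phosphoglycoprotein that acts on mineralization, had 0 and 3 counts at 0 µM, 5 to 32 counts in treated cells on day 5 and 22 to 95 on day 10 (log2 fold change 4.38, standard error 0.80, edgeR adjusted p = 0.0018). With so few counts at 0 µM, Mepe entered the test through its treated libraries alone. Dmp1, a matrix protein of osteocytes, had 4.11 and 1.77 CPM at 0 µM and 0.264 to 1.73 CPM in treated cells (-2.10, edgeR adjusted p = 0.0189). Its call was lost without 0 µM on day 5 (-0.71, edgeR adjusted p = 0.482). Fam20c, the kinase of secreted phosphoproteins, fell from 66.9 and 74.9 CPM to 24.2 to 43.8 CPM (-1.14, edgeR adjusted p = 7.1e-05), and was under the fold limit without 0 µM on day 5 (-0.96). Mme, the endopeptidase neprilysin, fell from 645 and 538 CPM to 231 to 350 CPM (-1.12, edgeR adjusted p = 4.5e-05). In A-5, Mme had 1704 CPM and Fam20c 128 CPM, the highest of all 10 libraries.

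Of 11 sphingomyelin, phosphocholine and matrix vesicle genes, 1 was called higher and none lower, with a median of -0.01, and 8 had an adjusted p under 0.05. Anxa6, a calcium-binding annexin found in matrix vesicles, had 183 and 208 CPM at 0 µM and 279 to 525 CPM in treated cells (log2 fold change 1.11, standard error 0.15, edgeR adjusted p = 3.2e-04). That fold was 0.91 without 0 µM on day 10. The other annexins of the list were lower in treated cells at folds within the limit, with log2 fold changes of -0.82 for Anxa5 (edgeR adjusted p = 6.2e-04) and -0.57 for Anxa2 (edgeR adjusted p = 0.0019), as was Sgms2, a sphingomyelin synthase (-0.83, edgeR adjusted p = 1.2e-04). Chkb was also lower (-0.35, edgeR adjusted p = 0.0352). Higher within the limit were Phospho2 (0.82, edgeR adjusted p = 0.0019), Smpd2 (0.61, 0.0402) and Chka (0.37, 0.0064). Of the other phosphate transporters 0 of 4 tested were called, 2 of them with an adjusted p under 0.05 and a fold under the limit. Slc25a3, the mitochondrial phosphate carrier, had the highest FPKM of that list, with a log2 fold change of -0.30 (edgeR adjusted p = 0.0175). Of the genes for zinc loading and GPI anchoring, which alkaline phosphatase needs to be active and held on the membrane, 0 of 8 were called, 3 of them with an adjusted p under 0.05. Those 3 were the zinc loading genes, all higher in treated cells at folds within the limit. Their log2 fold changes were 0.35 for Slc30a5 (edgeR adjusted p = 0.028), 0.57 for Slc30a6 (0.0023) and 0.45 for Slc30a7 (0.0034). Pigs, a subunit of the GPI transamidase and the highest of that list in FPKM, had a log2 fold change of -0.23 (edgeR adjusted p = 0.144). With no fold limit, at an adjusted p under 0.05 alone, edgeR called 24 of the 38 genes. The same rule called 7280 of all 16794 genes tested.

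**Figure D5:**
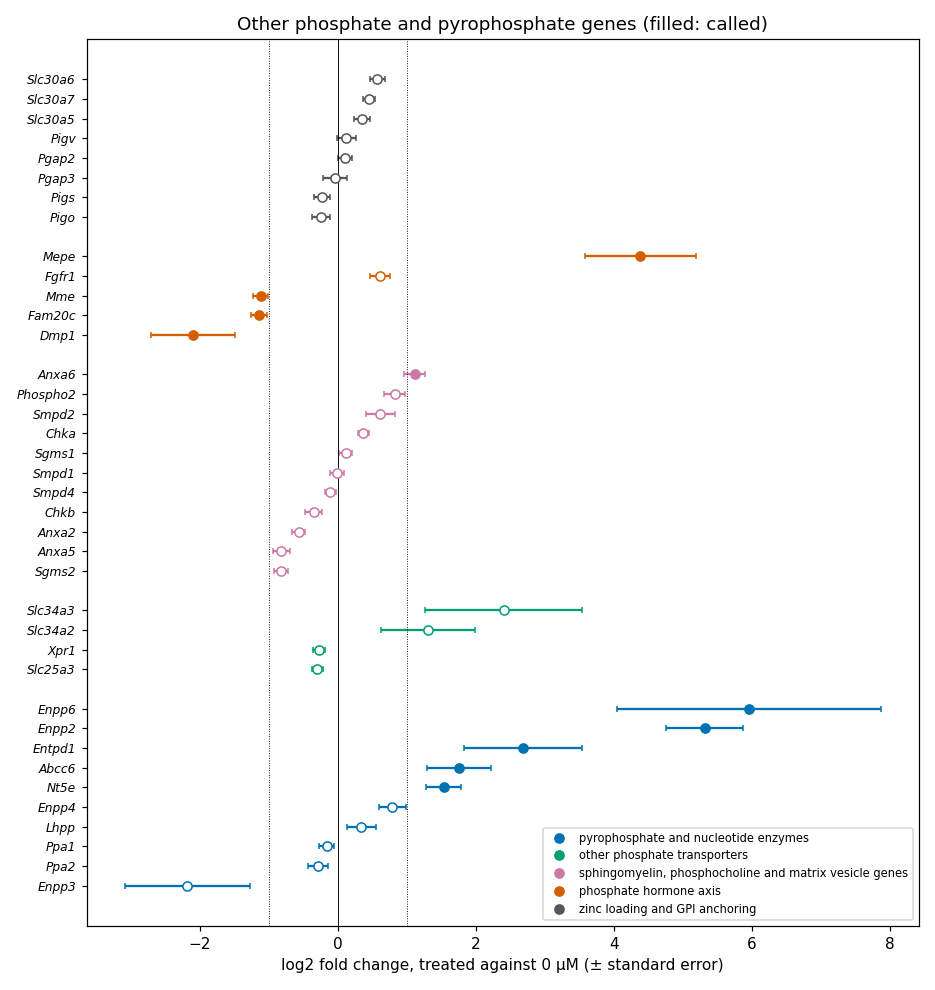
The log2 fold change of treated cells against 0 µM (horizontal axis, bars ± standard error) for the 38 tested genes of the lists, coloured by list, with filled points for called genes and dotted lines at the fold limit of 1 in either direction. Of the 7 called rises 5 are in the list named pyrophosphate and nucleotide enzymes, which also holds genes of other functions. The called falls are Dmp1, Fam20c and Mme, and Enpp3 lies at -2.18 without a call. The fitted value of Enpp6 depends on the prior count, since both libraries at 0 µM had 0 counts.

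The 5 genes whose log2 CPM was most like that of Alpl over the 10 libraries, among 10392 named genes that averaged 5 CPM or more, were Prickle1 (Pearson r = 0.9925), Acsm4 (0.9898), Ackr4 (0.9856), Fam214a (0.9854) and Mfsd8 (0.9840). Prickle1 encodes a planar cell polarity protein, and it had a mean of 18.6 CPM in treated cells, 2.67 CPM at 0 µM, 6.21 CPM in A-5 and 9.74 CPM in B-4. All 5 were lower in A-5 than in B-4, as Alpl was, but A-5 and B-4 were among the libraries used to choose them. Within the 6 treated libraries, with each day centred, r was 0.83 for Prickle1, 0.99 for Acsm4, 0.44 for Ackr4, -0.65 for Fam214a and 0.24 for Mfsd8. Over the 10 libraries, r with Alpl was 0.84 for Smpd3, 0.67 for Phospho1, 0.35 for Phex, 0.17 for Slc20a2, 0.14 for Ank and -0.85 for Slc20a1. Within the treated libraries, with each day centred, r was 0.6 for Smpd3, 0.38 for Phex and 0.55 for Slc20a2. There it was -0.17 for Ank and 0.9 for Slc20a1, each opposite in sign to the value over the 10 libraries. Phospho1 averaged under 5 CPM and had no such value. These values describe libraries that share the treatment, the doses and the days.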

How the data were processed

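RNA from MC3T3-E1 cells was sequenced after oligo(dT) selection. The authors deposited 1 table of raw counts per gene and of FPKM for 10 libraries (22036 Ensembl genes and 7547 newly assembled loci). The processing notes name HISAT2 2.0.4 and GATK 3.2-2 without their roles, and the counting program, genome build and use of strand are not given in the sources used here. The table also holds the authors' own comparisons of libraries, which were not used.

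The 8 genes, the lists and the tests were chosen with earlier results of these data known. Counts were analysed in R 4.3.3 with edgeR 4.0.16 (quasi-likelihood test, TMM, filterByExpr). Standard errors, and the intervals of log2 fold changes and slopes, were calculated back from the log2 fold change and the F statistic of that test. For genes with few or 0 counts at 0 µM they are rough. Treated cells were compared with 0 µM with day as covariate, and a 4-group model gave the difference between days. Alternatives used DESeq2 1.42.0, limma 3.58.1 on log2(FPKM + 1), other scalings, filters and covariates, untreated libraries as controls and each library left out. CPM used TMM-scaled library sizes, with exact 95% Poisson intervals. For likeness to Alpl, log2 CPM took a prior count of 2. Named list genes were up to 4 called genes per list by size of fold change, or else the gene with the highest mean FPKM. Nt5e, Anxa5, Anxa2, Sgms2 and Enpp3 were named after their values were seen. So were Slc30a5, Slc30a6, Slc30a7, Phospho2, Smpd2, Chka and Chkb. Tables and figures used pandas 2.3.3, scipy 1.17.1 and matplotlib 3.10.9. The tests were checked on simulated data. No pair of libraries within a group agreed within sampling noise (chi-square per degree of freedom 16.1 or more). Positions come from GENCODE M21 by Ensembl identifier.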

Additional observations from a re-analysis of the deposited data

Results flagged for a closer look

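The untreated libraries, which served only as values and in alternatives, held signal above the controls for 4 of the 8 genes. In each of these the lower 95% counting limit of the untreated library was above the upper limit of both libraries at 0 µM, an interval that covers counting error only. The share of all genes that met this rule was not counted, so the count is not shown to be particular to these genes. A-5 and B-4 themselves differed far beyond counting error (chi-square per degree of freedom 178). Alpl was at 0.591 CPM in A-5 and 3.48 CPM in B-4, against 0 and 0.0632 CPM at 0 µM. Ank was at 163.0 CPM in A-5 and 103.0 CPM in B-4, against 95.6 and 80.1 CPM. Phex was at 10.1 CPM in A-5, against 5.70 and 5.06 CPM. Slc20a2 was at 65.8 CPM in B-4, against 55.3 and 57.4 CPM. The labels give no time for A-5 and B-4, and time in culture and treatment cannot be told apart in these values. Among the 18 genes whose 6 treated libraries were checked for a single library apart from the rest, none was found by Dixon's criterion.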

How the results depend on the processing

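Of 349 comparisons of a value for the 8 genes with the same value under an alternative, 323 kept their direction and their side of the limits, 9 lost a call, 6 gained one and 11 changed sign, each of them a value that was not called. For treated cells against 0 µM the 4 calls became 2 with at least 10 counts in every library, where Alpl was not tested and Slc20a1 was at -0.978, and 3 with the untreated libraries in place of 0 µM or added to it, where Slc20a1 was at -0.464 and -0.765. They were 3 to 4 when single libraries were left out. For day 10 against day 5 the 1 call became 2 with at least 1 count in total, where Phex was added, and ranged from 0 to 2 when single libraries were left out. For the trend with dose the count of 0 became 2 (Alpl and Phex) with at least 1 count in total, and the cause was not tested. The difference between days stayed at 0 in every alternative run. The 10 listed genes called became 4 with at least 10 counts in every library, 6 with the untreated libraries in place of 0 µM or added to it, 5 with limma on log2(FPKM + 1), 24 with no fold limit, and 7 to 10 when single libraries were left out. With the untreated libraries in place of 0 µM, Enpp2 and Nt5e were reversed (-0.274 and -0.091), as were Ank (-0.249) and Slc20a2 (-0.001), and Slc20a2 was reversed without TMM (-0.011). The cause was not tested. Leaving out single libraries gave log2 fold changes against 0 µM of -0.317 to 0.865 for Ank, -0.075 to 0.168 for Slc20a2 and -0.164 to 1.705 for Phex, and dose slopes of -0.524 to 0.262 for Ank, -0.089 to 0.314 for Slc20a1, -0.016 to 0.305 for Slc20a2 and -0.015 to 1.596 for Phex. Depth class (over or under 40000000 counts) was added as a covariate after seeing the data and left 4, 1, 0 and 10 calls. Of the 5 genes most like Alpl, 0 were among the top 5 within treated libraries and 1 on log2(FPKM + 1). The labels give no replicate numbers. A fit with dose as a block, which pairs the days within each dose, was added after seeing the data and gave 2 calls for day 10 against day 5, where Phex (1.513, edgeR adjusted p = 0.041) joined Alpl. Levels of a few counts, as for Enpp1, Enpp6 and Mepe, limit what this depth can show.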
